A study of Mus musculus with 5 samples.

Results

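The lysosome genes described here are 37 genes that encode acid hydrolases and their luminal cofactors, lysosomal membrane proteins, the subunits of the vacuolar proton pump (V-ATPase) and the transcription factors TFEB and TFE3. They were chosen by name, and each was read from its brightest probe set among those annotated to exactly 1 gene symbol. Of the 37 genes, 35 had such a probe set and all 35 passed the filter on dim probe sets, out of 12446 genes tested on the arrays. The tetraspanin gene Cd63 and the proton-binding ring subunit gene Atp6v0c were not analysed here.

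The cells came from 2 sources. G9C8 is a CD8 T cell clone kept in culture, and 3 separately frozen vials of this 1 clone were thawed. NOD.G9C8 mice carry the receptor of the clone as a transgene on the NOD/LtJ background, and spleen cells of 2 such mice aged 4 to 8 weeks were used. Both kinds of cells had 3 days with the insulin B chain peptide (10 µg/ml), followed by 2 days in IL2 (5 IU/ml), and each vial and each mouse gave 1 array of total RNA. No group lacked the peptide, no sort before RNA extraction is named in the labels, and the promoter of the receptor transgene is not given in the sources used here.

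Lysosomes degrade proteins, lipids and glycans with hydrolases that work at acid pH. The V-ATPase keeps the lumen acid: its peripheral V1 sector hydrolyses ATP and turns a ring in the membrane-bound V0 sector, which carries protons across the membrane. In cytotoxic T cells the lytic granules that store granzymes and perforin are secretory lysosomes, and they carry LAMP1 and other lysosomal membrane proteins. TFEB and TFE3 are basic helix-loop-helix transcription factors that bind E-box sequences in the promoters of many lysosomal genes, and the kinase complex mTORC1 on the lysosome holds them in the cytoplasm when nutrients are plentiful.

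The arrays were comparable in scale, with median signals of 132.3 to 141.9 and highest signals of 25836 to 30579. All 8 T cell markers measured passed the filter, Cd8a and Cd8b1 among them, and their summed signal was 79723 to 92383 on the clone arrays and 98756 to 109230 on the transgenic arrays. Of the 8, Cd247 (-1.37), Cd8a (-0.68), Cd8b1 (-0.65) and Cd3d (-0.49) were lower in clone on the log2 scale, none was higher (limma; also none at an unadjusted p under 0.05), and Cd4 was dim at 32.1 to 50.6. Markers of macrophages and monocytes were carried mainly by the transgenic arrays: of 13 such markers measured, 8 passed the filter and 7 of these were lower in clone, though Cd14, Cybb and Ms4a7 passed only through the transgenic arrays, and the summed signal of the 13 was 1214 to 1421 on the clone arrays and 6270 to 9583 on the transgenic arrays. The other tested marker, Fcgr1, went the opposite way without a call (0.34, adjusted p = 0.193, limma). It gave 172.9, 201.1 and 201.6 in clone against 148 and 146 in transgenic cells, every vial above both mice. None of the 13 was at 0. Of those below the filter, C1qa (9.7 to 18.5 on the 5 arrays) and C1qb (33.2 to 75.6) overlapped between groups. Itgam (means of 20.1 in clone and 118 in transgenic cells), Mpeg1 (19.2 and 99.3) and C1qc (5.37 and 21.0) had less signal in every vial than in either mouse. Lyz2 reached 5549 on the second transgenic array against 3497 on the first. The summed signals of other lists also separated the groups, each largely through 1 gene: B cell markers (6 genes, 4166 to 5501 in clone and 8329 to 10592 in transgenic cells) through Ighm, dendritic cell markers (5 genes, 544.3 to 620.8 and 905.5 to 1416) through Itgax, mast cell and basophil markers (5 genes, 228.1 to 380.3 and 1095 to 1984) through Kit, and NK cell markers (2 genes, 141.2 to 181.3 and 1594 to 1755) through Eomes. Among the other B cell markers, Cd79b gave 31.5, 2.7 and 46.0 in clone against 654.5 and 594.0 in transgenic cells. It was lower in clone (-3.92, adjusted p = 0.000164, limma) but passed the filter only through the transgenic arrays. Ms4a1, Pax5 and Cd22 overlapped between groups, and so did Cd79a, which was below the filter. Ncr1 of the NK list had a mean of 83.2 in clone and 66.8 in transgenic cells. Stroma and endothelium markers (4 genes, 545.2 to 621.1 in clone and 1187 to 1228 in transgenic cells) separated through Pecam1. Erythroid markers (2 genes, 55.4 to 119.4 in clone and 138.6 to 142.9 in transgenic cells) were dim and separated through Hba-a1. The 3 plasma cell markers summed to more in clone (7165 to 8482) than in transgenic cells (4299 to 4544), through Xbp1. The others on that list went the opposite way, Sdc1 with means of 44 in clone and 226 in transgenic cells, and Jchain with 57 and 104. Both had clone means below the filter level of 88.2. A separation through 1 gene does not show that cells of that type were present. Ighm, for example, was also bright in the clone vials, at 3449 to 4883. Lysosomal genes are active in cells of these types as well as in T cells. What part any such cells had in the differences below was not tested. In such bulk samples, fewer cells of a type and less RNA per cell cannot be told apart.

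The lysosome genes differed between the sources in both directions, and hydrolases and membrane proteins each held members called either way. Differences are clone minus transgenic cells, of log2(signal + 20). By this measure 9 of the 35 genes were higher in clone, 7 were lower and 19 were not called at an adjusted p under 0.05 (limma, Benjamini-Hochberg over all 12446 genes). That is 45.7% called, against 43.8% of all genes tested, 22.0% higher and 21.7% lower, so the share of lysosome genes called is near the background. The largest difference was that of Scarb2 (-1.48), the only one of the 35 that exceeded 2-fold. By class, 9 of 15 hydrolases and cofactors were called (3 higher, 6 lower), 4 of 5 membrane proteins (3 higher, 1 lower), 3 of 13 V-ATPase genes (all higher) and neither of the 2 transcription factors. The median size of the difference, without its sign, was 0.51 for hydrolases and cofactors, 0.74 for membrane proteins and 0.15 for V-ATPase genes, against 0.39 for all genes tested. Signals of vials and mice did not overlap for 20 of the 35 genes, against 64.5% of all genes tested, with the vials above the mice for 11 (31.9% of all genes) and below them for 9 (32.6%). Because the clone is represented by vials and the transgenic cells by mice, each p-value rests on vial-to-vial variation within one clone and on the variation of 2 mice. Without the second transgenic array 4 lysosome genes were lower (11.4%), while the share of all genes called lower went from 21.7% to 15.1%.

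**Figure D1:**
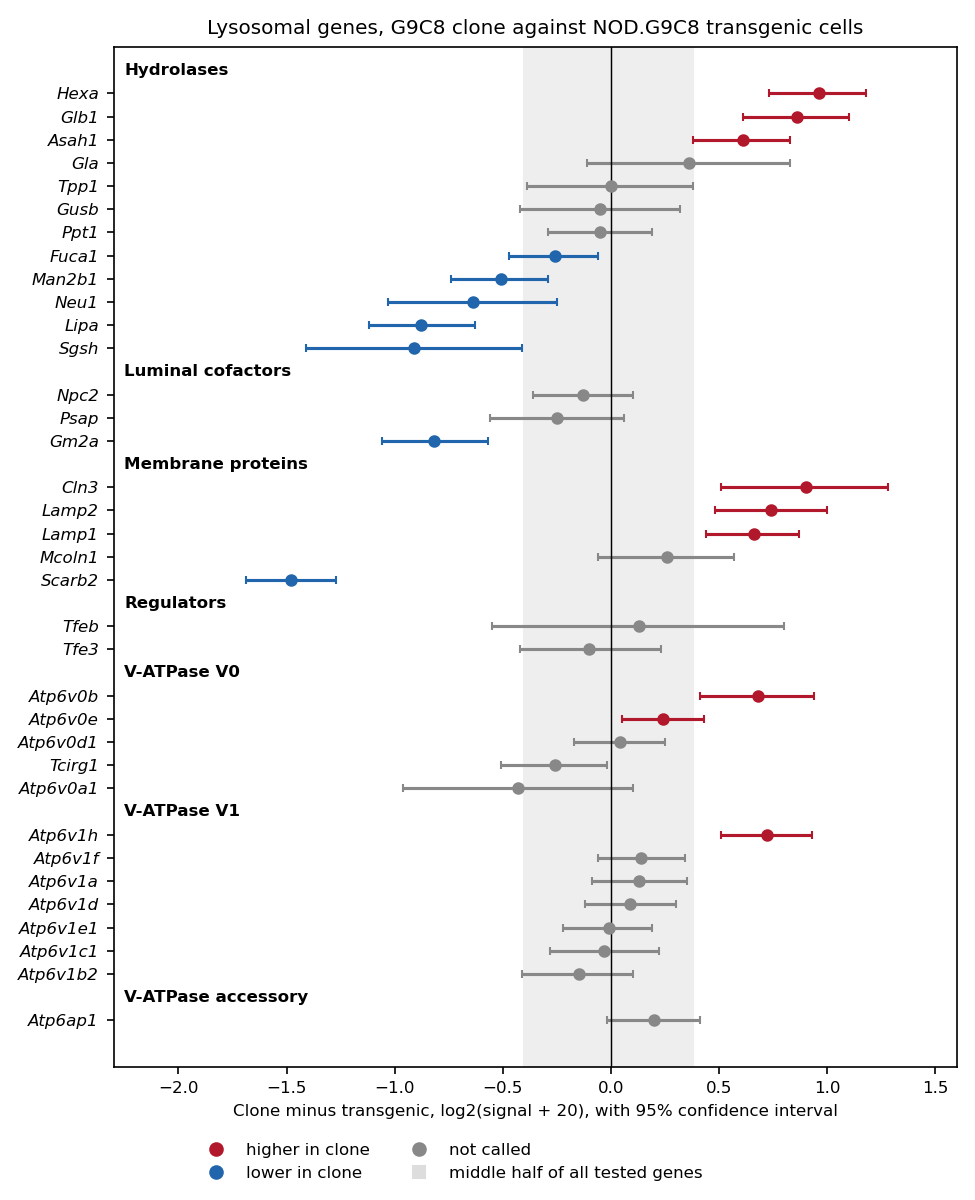
Difference of each of the 35 measured lysosome genes, clone minus transgenic on the log2(signal + 20) scale, with 95% confidence intervals of the limma fit; red is higher in clone, blue lower, grey not called, and the grey band holds the middle 50% of all genes tested (-0.40 to 0.38). Hydrolases spread from -0.91 (Sgsh) to 0.96 (Hexa), Scarb2 stands alone at -1.48, and most V-ATPase genes lie inside the band.

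Neither transcription factor gene passed the test. Tfeb gave signals of 486.7, 536.2 and 243.2 in the clone vials and 369.0 and 361.2 in the transgenic cells, which is 0.13 on the log2 scale with an interval (95% confidence, as throughout) of -0.55 to 0.80 (adjusted p = 0.761, limma). The third clone vial was low for Tfeb and the other clone vials lay above both mice; without that vial the difference was 0.46 with an adjusted p of 0.0459. Tfe3 gave 574.8, 552.5 and 617.4 in clone and 550.2 and 703.6 in transgenic cells, and the groups overlapped (-0.10, -0.42 to 0.23, adjusted p = 0.623). The unadjusted p was 0.681 for Tfeb and 0.52 for Tfe3. These arrays measure transcripts, whereas TFEB and TFE3 are regulated to a large extent by where the protein is held, which was not measured.

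The promoters of the lysosome genes were searched for the E-box bound by this family, since the members called higher and those called lower could be set side by side in this respect. The window was 250 bases before to 50 bases after each annotated start (RefSeq, GRCm38.p6), and 33 of the 37 genes had at least 1 window. The core E-box CACGTG, which reads the same on both strands, was present for 10 of the 33 genes (30.3%), against 11.4% of the 10088 tested genes with a window. Of the members called higher, 5 of the 7 with a window held it (Lamp1, Cln3, Atp6v0b, Atp6v0e and Glb1), and Hexa and Lamp2 did not. Of the members called lower, all 7 had a window and 1 held it, Sgsh. Among the members not called it was present for 4 of 17, namely Gla, Mcoln1, Atp6v0d1 and Atp6v1a. Among all tested genes with a window it was present for 12.3% of those called higher and 12% of those called lower. The longer form TCACGTGA, which contains the core, was present for 6 members (18.2%) and 2.14% of tested genes. By call, it was present for 2 of the 7 members called higher (28.6%) and for none of those called lower. Among the members not called it was present for 4 of 17 (23.5%), the same 4 that held the core. The longer form thus did not set the members called higher apart from those not called. The full palindrome GTCACGTGAC, known as the CLEAR element, was present only for Cln3 among the members and for 0.773% of tested genes. A match is a run of letters and no measurement of binding, and no test was made of these shares.

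The stretches shown are those of the members with a match that were called, to let the spacing of the E-boxes be seen beside the direction of each gene; all are written 5′ to 3′ on the strand of the gene, with the core E-box in capitals (for Atp6v0e the longer form). The Lamp1 stretch is chr8:13159088-13159160 on the plus strand, from 73 bases to 1 base before the start, and holds 4 E-boxes. The Cln3 stretch is chr7:126583340-126583397 on the minus strand, 161 to 104 bases before one of its 2 annotated starts, and holds 2. The Atp6v0b stretch is chr4:117887330-117887377 on the minus strand, 48 bases to 1 base before the start, and holds 2. The Glb1 stretch is chr9:114401018-114401047 on the plus strand, with the E-box beginning 48 bases before the start. The Atp6v0e stretch is chr17:26676387-26676416 on the plus strand, with the core beginning 3 bases after the start. The call of Atp6v0e was narrow, as described below. The Sgsh stretch, from the lower member, is chr11:119355522-119355551 on the minus strand, with the E-box beginning 29 bases before the start. Gla, Mcoln1, Atp6v0d1 and Atp6v1a, which were not called, also held matches and are not shown.
Lamp1: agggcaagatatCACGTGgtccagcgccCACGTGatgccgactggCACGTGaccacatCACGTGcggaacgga
Cln3: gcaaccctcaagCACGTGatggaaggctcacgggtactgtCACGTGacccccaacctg
Atp6v0b: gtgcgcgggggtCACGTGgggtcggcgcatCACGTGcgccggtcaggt
Glb1: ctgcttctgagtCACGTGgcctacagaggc
Atp6v0e: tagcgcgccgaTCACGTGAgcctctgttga
Sgsh: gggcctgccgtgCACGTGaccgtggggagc

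The hydrolases fell on both sides of 0: of 12, 3 were higher in clone, 5 lower and 4 not called, with a median of -0.05 beside -0.01 for all genes tested. The 3 higher ones act on glycolipids and ceramide. Hexa, encoding the alpha subunit of beta-hexosaminidase, which removes N-acetylgalactosamine from ganglioside GM2, gave 3197, 3570 and 3143 in the clone vials and 1634 and 1746 in the transgenic cells. Every clone array was thus above both transgenic arrays, and the difference was 0.96 (SE 0.10, adjusted p = 0.000109, limma), a 1.94-fold higher level. Glb1, encoding lysosomal beta-galactosidase, gave 1072.4, 1072.0 and 1137 in clone against 607.5 and 582.9, again without overlap (0.86, SE 0.11, adjusted p = 0.000343). Asah1, encoding acid ceramidase, gave 1643, 1816 and 1721 against 1105 and 1148 (0.61, SE 0.10, adjusted p = 0.00135).

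The lower hydrolases act on lipid esters, glycoproteins and heparan sulfate. Lipa, encoding the lysosomal acid lipase that cleaves cholesteryl esters and triglycerides, gave 1273, 1145 and 1084 in clone and 2217 and 2101 in transgenic cells (-0.88, SE 0.11, adjusted p = 0.000292, limma). At this probe set the vials lay close together and far below both mice. The other tested Lipa probe sets differed by -0.61 (adjusted p = 0.0195, limma over all probe sets) and by -0.22 without a call (0.174). Man2b1, the lysosomal alpha-mannosidase gene, gave 2121, 2023 and 1898 against 3013 and 2759 (-0.51, SE 0.10, adjusted p = 0.00278). Neu1, encoding the sialidase of lysosomes, gave 743.4, 1013 and 667.1 against 1232 and 1262 (-0.64, SE 0.17, adjusted p = 0.0158). Its second tested probe set differed by -0.38 and was not called (adjusted p = 0.0986 over all probe sets). For Neu1 the second clone vial came nearest to the transgenic level, and the call ended without the first (adjusted p = 0.0745) or the second transgenic array (0.0842).

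Sgsh, encoding the sulfamidase of heparan sulfate breakdown, gave 206.1, 241.3 and 184.5 in clone and 328.8 and 513.5 in transgenic cells (-0.91, SE 0.22, adjusted p = 0.00995, limma). The transgenic values were far apart, and without the second transgenic array the difference was -0.60 with an adjusted p of 0.114. The other Sgsh probe set, below the filter and not tested, overlapped between groups. It read 81.4, 35.9 and 154 in clone against 43.2 and 112.3 in transgenic cells. Fuca1, the alpha-fucosidase gene, passed narrowly, with 2292, 2406 and 2261 in clone against 2906 and 2673 (-0.26, SE 0.09, adjusted p = 0.0439). Its call ended without either transgenic array (0.261 without the first, 0.0851 without the second), without the first (0.0965) or the third clone vial (0.102), without an intensity trend (0.104) and with the replicate number as a block (0.178).

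The 4 hydrolases that were not called had overlapping groups at their brightest probe sets. Gla, encoding alpha-galactosidase A, differed by 0.36 (-0.11 to 0.83, adjusted p = 0.193, limma), and its clone vials ranged from 305.9 to 426.2 beside 235.4 and 337.6 in transgenic cells. Another Gla probe set, below the filter and not tested, did not overlap. It read 184.7, 160.9 and 41.9 in clone against 17.6 and 24.6 in transgenic cells. The remaining Gla probe set was dimmer still and overlapped between groups. Gusb, the beta-glucuronidase gene, differed by -0.05 (-0.42 to 0.32). Tpp1 and Ppt1, a peptidase and a thioesterase whose loss causes neuronal ceroid lipofuscinosis, differed by -0.00 (-0.39 to 0.38) and -0.05 (-0.29 to 0.19).

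The cofactors are small luminal proteins that present lipids to enzymes or transporters. Gm2a, the activator protein that lifts ganglioside GM2 out of the membrane for beta-hexosaminidase, gave 3352, 4048 and 3334 in clone and 6380 and 6202 in transgenic cells (-0.82, SE 0.11, adjusted p = 0.000419, limma). The level was 1.76-fold lower in clone, opposite in direction to Hexa, whose product acts on the lipid it presents. Its second tested probe set differed by -0.92 (adjusted p = 0.000625 over all probe sets). Psap, the precursor of the saposins, gave 5256, 7160 and 5878 against 6669 and 7735, with overlapping groups (-0.25, -0.56 to 0.06, adjusted p = 0.174). Without the second clone vial, the brightest of the 3, Psap differed by -0.37 (adjusted p = 0.0218), and with quantile normalization by -0.41 (0.0258). Its second probe set was lower in clone (-0.44, adjusted p = 0.0118 over all probe sets), and the mean over both was -0.34 (0.0491). Npc2, the luminal cholesterol carrier, was bright at 12847 to 16239 on all arrays and differed by -0.13 (-0.36 to 0.10, adjusted p = 0.331).

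**Figure D2:**
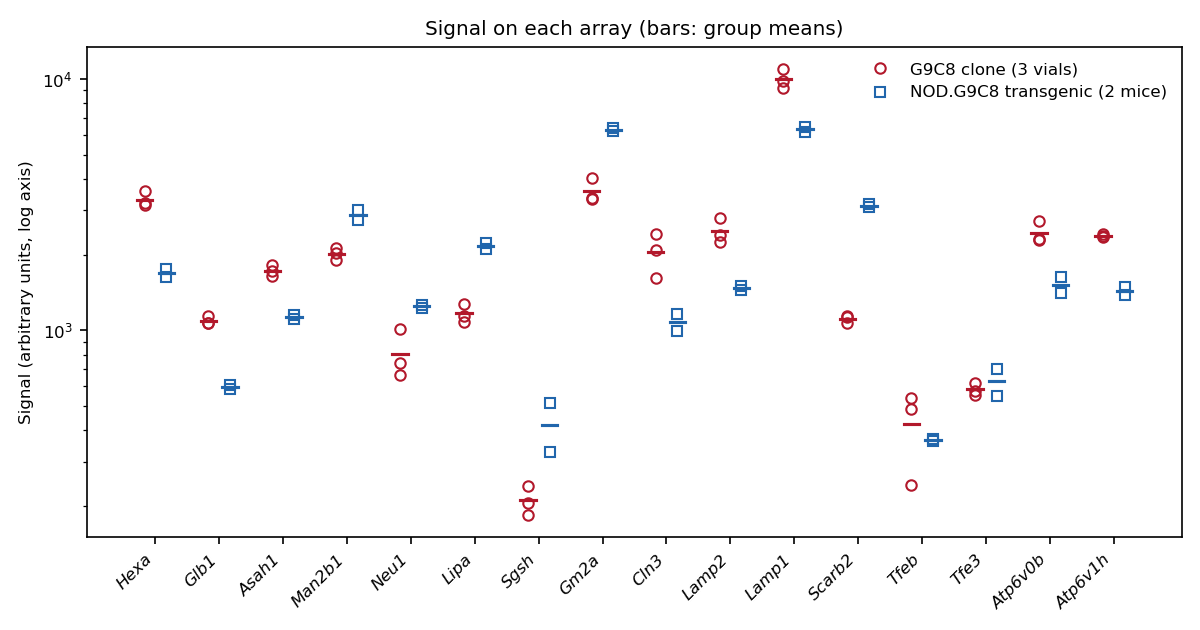
Signal of each array on a log axis for the 14 lysosome genes called with a difference of at least 0.5 on the log2 scale in either direction, and for Tfeb and Tfe3; circles are the 3 clone vials, squares the 2 mice and bars the group means. The groups are apart for the 14 called genes and overlap for Tfeb and Tfe3, where the third clone vial lies below both mice for Tfeb.

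Of the 5 membrane proteins measured, 3 were higher and 1 lower in clone. Lamp1, encoding the abundant glycoprotein whose appearance at the cell surface marks degranulation, gave 9181, 10928 and 9783 in the clone vials and 6459 and 6136 in transgenic cells (0.66, SE 0.10, adjusted p = 0.000752, limma). Lamp2, encoding its relative that also serves autophagy, gave 2250, 2808 and 2400 against 1501 and 1442 (0.74, SE 0.11, adjusted p = 0.00102). Both genes were higher in all clone vials than in either mouse, with the second vial the brightest. Cln3, encoding a lysosomal membrane protein lost in juvenile neuronal ceroid lipofuscinosis, gave 1618, 2427 and 2094 against 993.0 and 1164 (0.90, SE 0.17, adjusted p = 0.00274).

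Scarb2, encoding LIMP-2, the receptor that carries beta-glucocerebrosidase to the lysosome, went the other way. It gave 1125, 1135 and 1068 in clone and 3090 and 3172 in transgenic cells, so the vials and the mice each agreed closely among themselves. The difference was -1.48 (SE 0.09, adjusted p = 8.02e-06, limma), a 2.79-fold lower level in clone, and its second probe set gave -1.50. Over the 15 alternative settings the Scarb2 difference stayed between -1.50 and -1.45. Mcoln1, the lysosomal calcium channel gene, overlapped between groups at its brightest probe set (0.26, -0.06 to 0.57, adjusted p = 0.17). A second Mcoln1 probe set was higher in clone without overlap (0.33, adjusted p = 0.0473 over all probe sets), and another differed by -0.14 (0.486).

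The probe sets of Lamp2 differed in size of effect. Besides the brightest, 2 further probe sets were higher in clone by 1.21 and 1.23 (adjusted p = 0.000117 and 4.15e-05, limma over all probe sets), and another differed by 0.15 without a call (0.29). Lamp2 is known to be spliced into alternative last exons, and which transcripts each probe set reads was not determined here.

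Few V-ATPase genes were called. Of 13 measured, 3 were higher in clone, none was lower (1, Tcirg1, had an unadjusted p under 0.05 in that direction) and 10 were not called in the limma fit, with a median of 0.09 that turned to -0.02 under quantile normalization. In the V0 sector, Atp6v0b, a subunit of the proton-carrying ring, gave 2307, 2725 and 2286 in clone and 1623 and 1411 in transgenic cells (0.68, SE 0.12, adjusted p = 0.00183). Of its other probe sets, 1 was also higher (0.53, adjusted p = 0.00753, limma over all probe sets). The remaining 1, nearly as bright at a mean of 1837, had overlapping groups and was not called (0.29, adjusted p = 0.316). Atp6v0e passed narrowly at 6637, 6864 and 7282 against 5705 and 6017 (0.24, SE 0.08, adjusted p = 0.0458). The Atp6v0e call ended without any 1 of the 5 arrays (adjusted p = 0.0514 to 0.241), without a filter (0.0685), without an intensity trend (0.132), with the replicate block (0.26) and under quantile normalization (0.08 on the log2 scale, adjusted p = 0.366).

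The a subunits form the proton channel next to the ring and exist as isoforms. Tcirg1 and Atp6v0a1, the isoform genes among the members, were not called. Another isoform gene, Atp6v0a2, belongs to the further lists described below and was named after its value was seen. It was lower in clone, at 486.6, 428.0 and 377.6 against 695.6 and 672.1 (-0.65, SE 0.14, adjusted p = 0.00668, limma). Tcirg1, encoding the a3 isoform found in osteoclasts and secretory lysosomes, gave 735.8, 791.8 and 761.1 in clone and 911.9 and 925.4 in transgenic cells, every vial below both mice (-0.26, -0.51 to -0.02, unadjusted p = 0.0400, adjusted p = 0.082, limma). Atp6v0a1, encoding the a1 isoform, gave 190.4, 291.5 and 317.8 against 402.7 and 319.5 from its brightest probe set (-0.43, -0.96 to 0.10, adjusted p = 0.168). Its other 3 probe sets were dimmer still and pointed elsewhere: 1 differed by 0.16 (adjusted p = 0.647 over all probe sets), and 2 below the filter read 73.0, 123.7 and 50.2 against 25.4 and 25.2, and 83.3, 22.4 and 36.0 against 7.4 and 2.8. No direction can be given for Atp6v0a1 from these. Atp6v0d1, the subunit that couples the ring to the central stalk, differed by 0.04 (-0.17 to 0.25).

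In the V1 sector, Atp6v1h, encoding the regulatory H subunit, gave 2377, 2351 and 2407 in clone and 1383 and 1487 in transgenic cells (0.72, SE 0.09, adjusted p = 0.000348, limma). Its second tested probe set, dimmer at a mean of 298, read the opposite way, 228.7, 285.0 and 207.6 against 416.3 and 353.9 (-0.64, adjusted p = 0.02 over all probe sets), and the mean over both was 0.04 (adjusted p = 0.794). Atp6v1h was the only one of the 22 members with several tested probe sets to be called in both directions. The other 6 V1 genes were not called from their brightest probe sets, which differed by -0.15 (Atp6v1b2) to 0.14 (Atp6v1f). They encode the catalytic A subunit (Atp6v1a, 0.13), the nucleotide-binding B2 subunit (Atp6v1b2), the stalk subunits C1 (Atp6v1c1, -0.03), D (Atp6v1d, 0.09) and E1 (Atp6v1e1, -0.01), and F (Atp6v1f). The accessory subunit gene Atp6ap1 differed by 0.20 (-0.02 to 0.41, adjusted p = 0.128), with all clone vials above both mice.

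Several of these uncalled V1 genes were called from a dimmer probe set. When every probe set above the filter was tested, which called 43.6% of 22322 probe sets, further ones were higher in clone for Atp6v1a (0.43, adjusted p = 0.0124, limma), Atp6v1b2 (0.36, 0.0353), Atp6v1d (0.66, 0.00114) and Atp6v1e1 (0.69, 0.00546). In all, 7 of the 13 V-ATPase genes had at least 1 probe set called higher and 1 had one called lower, compared with 3 and 0 by the brightest probe set. A gene with more probe sets has more chances of a call: of all 12446 genes, 27.1% had a probe set called higher and 27.4% one called lower, and of the 5612 with several tested probe sets 36.8% and 38.3%. Of the 8 V-ATPase genes with several tested probe sets, 6 had one called higher (75%) and 1 had one called lower (12.5%). Counted by probe set, 9 of the 24 of V-ATPase genes were called (37.5%), 8 higher and 1 lower, against the 43.6% of all probe sets called in either direction. For Atp6v1e1 the mean over probe sets was 0.34 (adjusted p = 0.0213), against -0.01 from the brightest. For these 4 genes the call depended on the probe set read. Among hydrolases and cofactors the same comparison gave 3 genes with a probe set called higher and 7 with one called lower, compared with 3 and 6, and of the 22 members with several tested probe sets 11 had the same call for all of them.

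**Figure D3:**
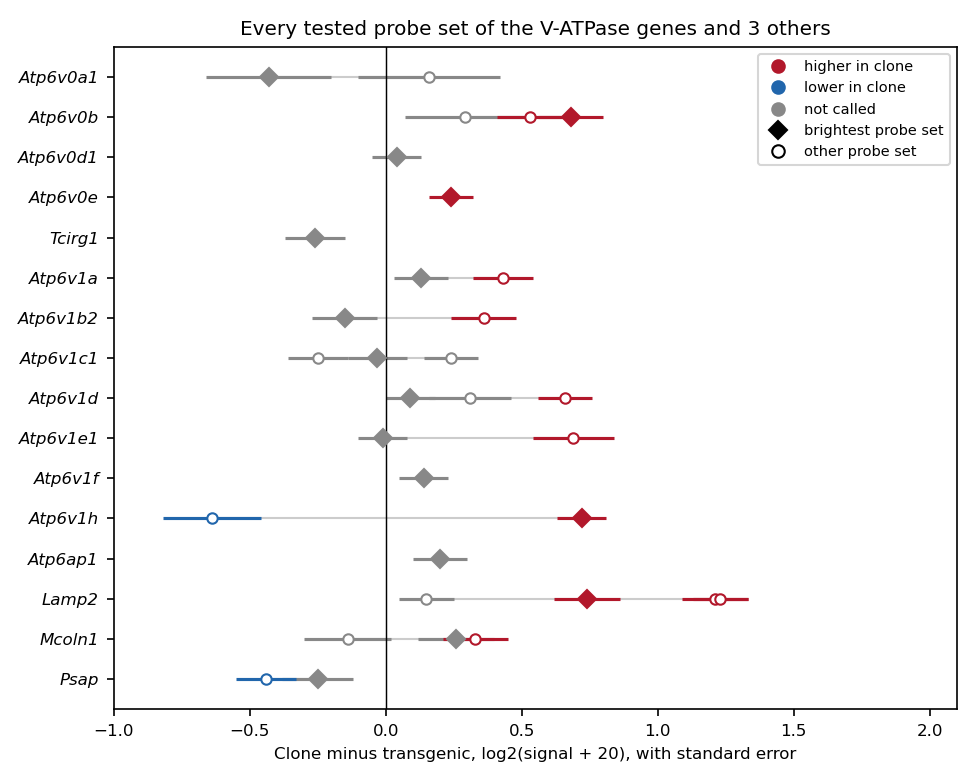
Difference of every tested probe set, clone minus transgenic on the log2(signal + 20) scale with its standard error, for the 13 V-ATPase genes, Lamp2, Mcoln1 and Psap; diamonds are the brightest probe set of a gene and open circles the others, coloured by call. The 2 probe sets of Atp6v1h lie at 0.72 and -0.64, and those of Atp6v1d and Atp6v1e1 span from near 0 to 0.66 and 0.69.

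Arrays within a group differed as well. The second clone vial was above the mean of the other 2 vials for 27 of the 35 genes, by a median of 0.11, compared with 6452 of all 12446 genes and a median of 0.01. Between the mice, the second transgenic array was above the first for 17 of 35 genes, with a median of -0.02. Macrophage and monocyte markers had more signal in the second mouse for 7 of the 8 tested, by a median of 0.44. Of the 7 lysosome genes lower in clone, 3 had more signal in the second mouse than in the first (Neu1, Sgsh and Scarb2), with a median over the 7 of -0.04.

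Lysosomal genes outside the 37 were described from 5 further lists of 99 genes, of which 91 had a named probe set and 85 were tested. Of these, 24 were higher in clone, 26 lower and 35 not called, or 58.8% called beside 43.8% of all genes. Without the first transgenic array 13 were higher and 14 lower (31.8% called, beside 29.4% of all genes in that fit), and without the second 17 were higher and 17 lower (40% beside 31.6%). The share of these genes called was thus close to that of all genes when the first transgenic array was left out. Hyal2, Lgmn and Atp6v0d2, all called lower, had clone means below the filter level of 88.2 and passed the filter only through the transgenic arrays, which fixes in part the direction they could be called in. Without these 3, 23 genes were lower. Of 23 other hydrolases and activators, 7 were higher and 6 lower, with a median of -0.02. The largest differences were those of Hyal2, encoding a hyaluronidase (-2.01, adjusted p = 0.000292, limma), Lgmn, the gene of the endopeptidase legumain (-1.45, 0.00969), and Scpep1, encoding a serine carboxypeptidase (1.33, 0.000114). Lgmn was at 121.4 and 276.1 in the mice, and its call ended without the second transgenic array (-0.92, adjusted p = 0.112).

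Other lysosomal membrane proteins were lower in clone in 10 of 20 cases, higher in 1 and not called in 9, with a median of -0.58. Abcb9, a peptide transporter of lysosomes, gave 149.8, 150.4 and 167.5 in clone and 705.2 and 780.8 in transgenic cells (-2.12, SE 0.16, adjusted p = 1.99e-05, limma). Cd164, a sialomucin, gave 3629, 3802 and 3833 against 9125 and 9818 (-1.33, SE 0.08, adjusted p = 7.89e-06). Npc1, encoding the membrane protein that takes cholesterol from NPC2, gave 218.3, 252.7 and 160.4 against 497.6 and 549.0 (-1.26, SE 0.20, adjusted p = 0.00133), while Npc2 itself was not called. All 3, named for their large differences, were lower in every vial than in either mouse, as were 32.6% of all genes tested.

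Among 13 other V-ATPase subunits and assembly factors, 6 were higher, 2 lower and 5 not called (median 0.14). The largest difference among them was that of Atp6v0e2, an isoform of the e subunit, at 1436, 1861 and 1576 in clone and 363.8 and 316.7 in transgenic cells (2.19, SE 0.14, adjusted p = 9.06e-06, limma). Its partner isoform Atp6v0e, described above, differed by 0.24. Atp6v1g1, a stalk subunit, gave 6380, 6050 and 6036 against 2821 and 3082 (1.06, SE 0.09, adjusted p = 3.3e-05). Atp6v0d2, an isoform of the d subunit known from osteoclasts and macrophages, was dim and lower in clone (-1.20, adjusted p = 0.0167). It passed the filter only through the transgenic arrays, as said above, and its call ended without the second transgenic array (-0.82).

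Of 15 genes that sort enzymes to lysosomes, 5 were higher, 6 lower and 4 not called (median 0.07). Igf2r, encoding the large mannose 6-phosphate receptor, gave 1085, 1437 and 840.0 in clone and 2695 and 2479 in transgenic cells (-1.22, SE 0.19, adjusted p = 0.00122, limma). Sort1, encoding the sorting receptor sortilin, was lower (-1.12, adjusted p = 0.000697), but the mean over its probe sets was -0.32 and not called (0.197). Sumf1, encoding the enzyme that activates sulfatases such as the product of Sgsh, was higher at 467.5, 560.6 and 487.6 against 249.9 and 217.0 (1.05, SE 0.15, adjusted p = 0.000805). The small mannose 6-phosphate receptor gene M6pr, named after its value was seen, was higher by 0.30 (adjusted p = 0.0226).

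Of 14 genes of mTORC1 docking and TFEB control, 5 were higher, 2 lower and 7 not called (median 0.20). Lamtor1, which anchors the Ragulator scaffold of mTORC1 to the lysosome, gave 5595, 6504 and 6690 in clone and 4380 and 3857 in transgenic cells (0.60, SE 0.11, adjusted p = 0.00216, limma). Rptor, the mTORC1 subunit that recruits substrates, was lower (-0.64, SE 0.12, adjusted p = 0.00256). Mitf, a relative of Tfeb, was dim, at 103.3 to 135.7 in clone and 209.6 and 229.3 in transgenic cells (-0.75, adjusted p = 0.0212). Its call ended without the first (adjusted p = 0.134) or second transgenic array (0.0806), without the third clone vial (0.0501) and with the replicate block (0.0829).

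**Figure D4:**
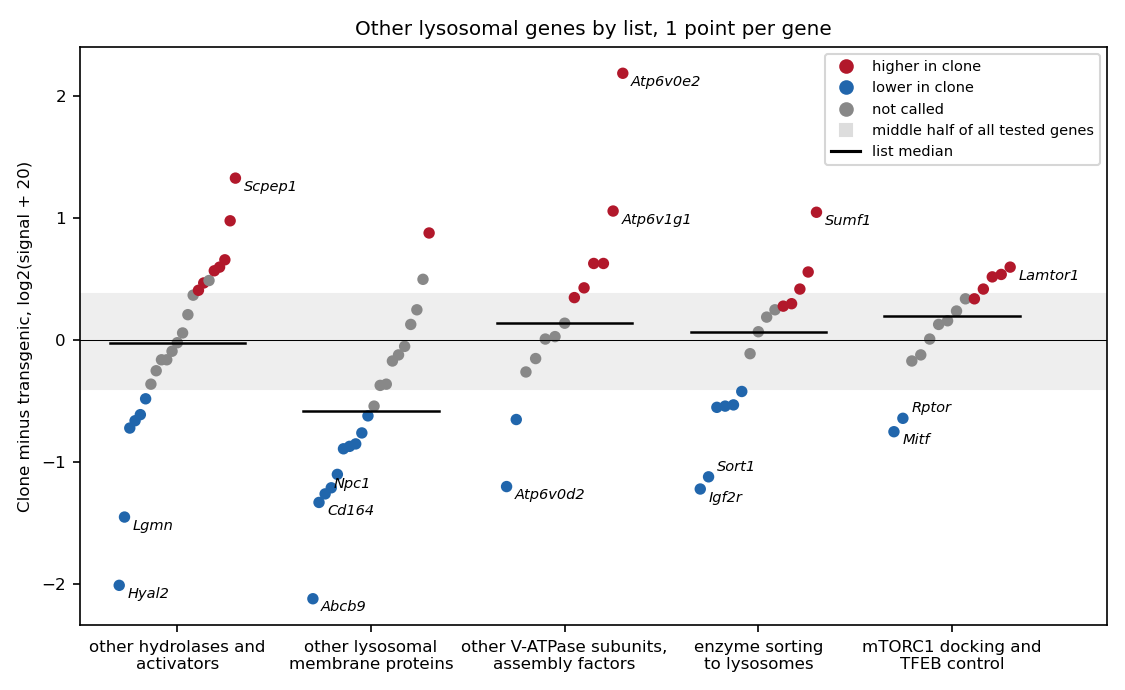
Differences of 85 lysosomal genes outside the 37, clone minus transgenic on the log2(signal + 20) scale, 1 point per gene in 5 lists, with the list median as a line and the middle 50% of all tested genes as a band. Other membrane proteins have a median of -0.58, the other lists have medians from -0.02 to 0.20, and Atp6v0e2 stands highest at 2.19.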

How the data were processed

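Total RNA of 5 cultures (8 µg each) was labelled with biotin and read on one-colour Affymetrix mouse arrays, per the labels' protocols. The authors deposited 1 linear intensity for each probe set, made with GCOS per the submitters' processing notes, with no version given there. On each array the 2% trimmed mean of the deposited signals is 500, so no further normalization was applied. No detection calls were used here, and the number of arrays limits the precision (median standard error 0.16 on the log2 scale). Pairs of arrays shared 85 to 159 identical values, so none was a copy.

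Of 45101 probe sets, 64 controls were left out; of the others 34945 have 1 gene symbol, 932 several and 9160 none. Signals were taken as log2(signal + 20), which understates differences of dim genes. Probe sets with a mean signal of at least 88.2 (40th percentile) were kept, with the brightest per gene, and fitted in limma 3.58.1 (R 4.3.3) with an intensity trend (3 residual degrees of freedom, 8.36 after moderation), two-sided. The fit was tested on simulated data. Groups follow the sample titles. The members and lists were chosen with earlier results of these data known. Signals of each array are given for members called with a difference of at least 0.5 in either direction and for Tfeb, Tfe3, Lamp1, Lamp2, Atp6v0a1 and Tcirg1, and up to 3 called genes with the largest differences were named from each further list; others were chosen after seeing their values. Plots used matplotlib 3.10.9 (Python 3.11.15). Promoter windows come from RefSeq (GRCm38.p6).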

Additional observations from a re-analysis of the deposited data

How the results depend on the processing

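Under 15 alternatives (quantile normalization, pseudocounts of 1 and 50, no filter or one at the 60th percentile, the mean over probe sets, no _s_at or _x_at probe sets, no intensity trend, robust estimation, the replicate block and each array left out), 22 of 35 members kept their call under all 15, among them 10 called ones: Hexa, Glb1, Asah1, Lipa, Man2b1, Gm2a, Lamp1, Lamp2, Cln3 and Scarb2. Atp6v0b (called) and Atp6ap1 kept theirs under 14 and were not tested without _s_at and _x_at probe sets. Of 15 named genes on the further lists, 10 kept theirs under all 15, and Hyal2 under 14, since the filter at the 60th percentile leaves it out. Leaving out 1 array gave 8 to 9 members called higher, 4 to 8 lower, 13 to 21 other lysosomal genes higher and 14 to 27 lower, and medians of -0.20 to -0.13 for hydrolases and cofactors; with a single transgenic array that array is assumed to vary like the others. The V-ATPase median of 0.09 became -0.02 under quantile normalization. Atp6v1e1, at -0.01, was 0.34 as the mean over probe sets and 0.69 without _s_at and _x_at probe sets, both called; these read other probe sets. When every probe set was tested, an alternative chosen after seeing the data, 7 V-ATPase genes had a call higher and 1 a call lower, in place of 3 and 0. The replicate numbers name vials and mice and do not pair samples (correlations of same-numbered deviations -0.03 and -0.08); with the replicate block 8 members were higher and 6 lower, and 4633 in place of 5448 of all genes were called. No detection calls were used, so how far the dim signals, such as those of Atp6v0a1 and Sgsh, lie above background is unknown.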
